A study of Mus musculus with 18 samples.

Results

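Tiparp, which encodes a mono-ADP-ribosyltransferase induced by dioxin, and Ahr, which encodes the aryl hydrocarbon receptor, were followed across 18 oligonucleotide arrays of C3H10T1/2 cells, a mouse fibroblast line that can be driven towards fat cells. The members are the probe sets whose single gene symbol in the array annotation is Tiparp (93985_at) or Ahr (160495_at), 1 for each gene, so 2 genes of 8251 with a symbol and 2 probe sets of 12422. The pair was chosen by its response to TCDD, with and without IDMB, in these same arrays. The 8 groups were IDMB+EGF+TCDD (2 arrays), IDMB+EGF (2), IDMB+TCDD (2), IDMB (3), EGF+TCDD (2), EGF (2), TCDD (2) and UT (3).

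TCDD, a dioxin that binds the receptor, was present at 10 nM for 72 h. EGF, a growth factor acting through a receptor tyrosine kinase, was present at 10 nM for 24 h. IDMB, the adipogenic mix, was present for 24 h and held insulin at 10 µg/mL, the PPARγ agonist BRL49653 and the glucocorticoid dexamethasone at 1 µM each, and the phosphodiesterase inhibitor IBMX at 0.5 µM. UT is not spelled out in the labels and was read as cells given none of the 3 treatments. In every group the cells had been without fresh serum for 72 h and confluent for 24 h, and each array carried mRNA pooled from 6 cultures of this 1 line. The labels do not say whether the arrays of a group came from separate experiments, so p-values measure the spread between these arrays, which may be technical. In pooled RNA of this kind, fewer cells with a transcript and less of it per cell cannot be told apart.

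The aryl hydrocarbon receptor (AhR) is a transcription factor of the bHLH-PAS family that waits in the cytoplasm with chaperones. A bound ligand sends it to the nucleus, where it pairs with ARNT and binds DNA elements with the core GCGTG, turning on genes of xenobiotic metabolism. Tiparp is one of its direct targets, and the enzyme it encodes modifies the receptor and limits its activity, which closes a negative feedback loop. The receptor protein is also broken down after ligand binding. Arrays measure RNA, so neither protein was measured here.

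The stretch of genome just before the start of Tiparp is shown because the receptor acts on such DNA and because Tiparp had the largest response to TCDD of the pair. It covers the 250 bases before the annotated start, chr3:65528197-65528446 on the plus strand of GRCm38.p6 (RefSeq), and the capitals mark the letters of GCGTG on either strand.
Tiparp: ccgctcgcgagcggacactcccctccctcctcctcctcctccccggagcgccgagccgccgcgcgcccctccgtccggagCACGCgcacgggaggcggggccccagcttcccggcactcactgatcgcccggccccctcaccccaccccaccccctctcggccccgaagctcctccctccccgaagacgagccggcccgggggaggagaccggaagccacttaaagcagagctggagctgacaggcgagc
The core occurred 1 time, on the minus strand, from 170 to 166 bases before the start, in a window with 75.2% G and C. Of 32841 RefSeq promoter windows of the same length, 9250 (28.2%) held the core on either strand. The match is a description of these letters and not evidence of binding.

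The signal is the deposited intensity on a linear scale. For fold changes and tests, values under a floor of 143.5 (the lowest 20% of all values) were raised to the floor and log2 was taken. A probe set was tested when the highest of its 8 group means reached 9.73 on the log2 scale, the median of all values. Ahr lay above that limit in all 8 groups. Tiparp lay above it in 7 and just below it in UT (mean log2 9.66), and neither gene was at the floor on any array. A probe set is called when the adjusted p of limma's moderated test (Benjamini-Hochberg, over 7134 probe sets) is under 0.05.

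Array medians ran from 793.35 to 935.7. Among 8 fibroblast markers 7 were bright enough to be tested (Col1a1 had a signal of 68469.3 to 152910.8), while Vim, an intermediate filament of fibroblasts, read only 102.7 to 938.6. Of markers of other cell types, 1 of 5 for macrophages (Csf1r), 1 of 4 for endothelium (Pecam1) and 1 of 4 for epithelium (Cdh1) were. Adgre1, Ptprc, Itgam and Cdh5 were at or below the floor on 16 of 18 arrays each, Krt19 on 18 and Epcam on 14. The remaining untested markers were there on fewer arrays, Krt5 on 7, Tek on 3, Kdr on 2 and Cd68 on 1. Kdr read 122.7 to 747.8 and Cd68 64.6 to 1444.1, so some untested markers reached signals like those of Vim. The Gapdh ratio (3' over 5' control probe sets), a sign of RNA or labelling quality, ran from 1.43 to 2.86 on the 8 arrays with EGF and from 0.854 to 1.73 on the 10 without. The corresponding actin ratio ran from 1.80 to 3.80 on the 9 arrays with IDMB and from 1.23 to 1.93 on the 9 without. The number of arrays limits the precision of every value.

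Tiparp was high on every array with TCDD and, without TCDD, higher with IDMB than without it. Its signal was 10757.5 and 12160.7 in IDMB+EGF+TCDD cells, against 3171.8 and 6747.3 in IDMB+EGF cells. In IDMB+TCDD cells it was 8195.8 and 9224.7, against 2764.2, 5376.4 and 4041.4 in IDMB cells. Neither pair overlapped, and the IDMB+EGF arrays stood furthest apart.

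Outside the mix the gap was wider. Tiparp had a signal of 10360.4 and 14264.4 in EGF+TCDD cells, against 1044.7 and 1071.2 in EGF cells. In TCDD cells it was 12955.1 and 10936.6, against 1118, 562.3 and 844 in UT cells. Over all arrays, the 8 with TCDD ranged from 8195.8 to 14264.4 (median 10847.05) and the 10 without it from 562.3 to 6747.3 (median 1941.1), with no overlap.

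In the order of group means Tiparp ran from EGF+TCDD, TCDD and IDMB+EGF+TCDD, through IDMB+TCDD, IDMB+EGF and IDMB, down to EGF and UT. The highest group mean of the signal was 14.6 times the lowest. EGF+TCDD overlapped with TCDD, TCDD with IDMB+EGF+TCDD, IDMB+EGF with IDMB and EGF with UT, so the order within these pairs lay inside the spread of the arrays. The widest step was 1.89 on the log2 scale, between IDMB and EGF.

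**Figure D1:**
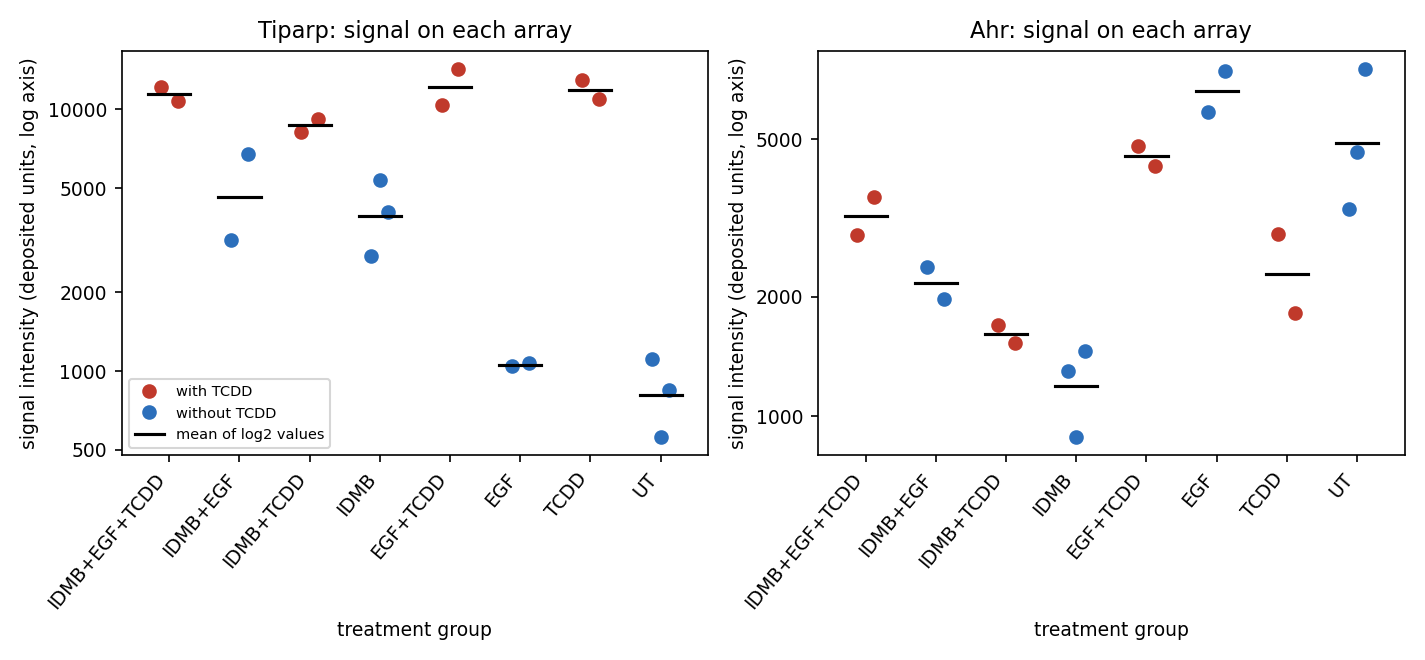
Signal of Tiparp (left) and Ahr (right) on each of 18 arrays in 8 treatment groups, on a log axis in deposited intensity units; points are arrays and bars the means of the log2 values. Tiparp lies between 8195.8 and 14264.4 on all arrays with TCDD and between 562.3 and 6747.3 on those without, while Ahr is highest in EGF and UT cells and lowest in IDMB cells.

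The TCDD contrast was used to choose the pair, so its sizes are given as a description without a test. With IDMB, Tiparp was 2.47-fold higher in IDMB+EGF+TCDD than in IDMB+EGF cells (log2 1.31, SE 0.357). That value was 1.70-fold without IDMB+EGF 1 and 3.61-fold without IDMB+EGF 2, so it depended on which of the 2 IDMB+EGF arrays was kept. In IDMB+TCDD cells it was 2.22-fold higher than in IDMB cells (log2 1.15, SE 0.326). Without IDMB, Tiparp was 11.5-fold higher in EGF+TCDD than in EGF cells (log2 3.52, SE 0.357) and 14.7-fold higher in TCDD than in UT cells (log2 3.88, SE 0.326).

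Averaged over the backgrounds with and without EGF, the TCDD fold of Tiparp was 2.34 with IDMB and 13.0 without it. The difference between these was -2.47 on the log2 scale (SE 0.342), and it ran from -2.74 to -2.20 when any 1 array was left out. On the linear scale the signal was 6499.6 higher with TCDD in cells given IDMB and EGF and 4649.6 higher in cells given IDMB, against 11254 in cells given EGF and 11104 in cells given neither. The smaller fold with IDMB went with a higher signal without TCDD and with a smaller step in signal.

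The effect of IDMB itself was not the contrast used to choose the pair, and it was tested. Its comparisons share arrays with the TCDD contrasts used in the choice, whose references were UT, EGF, IDMB and IDMB+EGF cells. For both genes the p-values of the single IDMB comparisons are therefore not independent of that choice. Without TCDD, IDMB raised Tiparp. It rose 4.84-fold in IDMB cells against UT cells (log2 2.27, SE 0.292, 95% interval 1.66 to 2.89, limma adjusted p = 4.98e-05) and 4.37-fold in IDMB+EGF cells against EGF cells (log2 2.13, SE 0.357, 95% interval 1.37 to 2.89, limma adjusted p = 0.000997). In these 2 comparisons 14.1% and 10.8% of all tested probe sets were called in either direction. Both calls held without any 1 array. The actin ratio ran higher on the arrays with IDMB, with some overlap, and its part in the IDMB effects was not tested.

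With TCDD present no such rise was seen. Tiparp differed by log2 -0.45 in IDMB+TCDD cells against TCDD cells (95% interval -1.21 to 0.30, limma adjusted p = 0.452) and by -0.09 in IDMB+EGF+TCDD cells against EGF+TCDD cells (95% interval -0.85 to 0.67, limma adjusted p = 0.927), where 12.8% and 6.5% of probe sets were called. The signal of both IDMB+TCDD arrays was below both TCDD arrays, a comparison in which 60.5% of tested probe sets did not overlap. In the pair with EGF the arrays of Tiparp overlapped. The mean over the 4 backgrounds was a rise of log2 0.97 (SE 0.171, limma adjusted p = 0.000371, called for 34.1% of probe sets), a value that averages 2 backgrounds with a rise and 2 without. The gap between the IDMB effect with and without TCDD is the same contrast as the gap in TCDD effect above, so it was not tested.

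No EGF effect on Tiparp passed the test. The difference was log2 0.39 in EGF against UT cells (95% interval -0.31 to 1.08), 0.03 in EGF+TCDD against TCDD cells (-0.73 to 0.79), 0.24 in IDMB+EGF against IDMB cells (-0.45 to 0.93) and 0.40 in IDMB+EGF+TCDD against IDMB+TCDD cells (-0.36 to 1.15). The limma adjusted p-values ran from 0.574 to 0.978, and the arrays overlapped in each pair except the last. In that last pair 48.1% of tested probe sets did not overlap either. In the EGF comparisons above, in the same order, 6.17%, 3.5%, 3.8% and 0.28% of probe sets were called. The mean EGF effect was 0.26 (SE 0.171, 95% interval -0.10 to 0.63, limma adjusted p = 0.342), and the exact permutation test of this mean gave a two-sided p = 0.134. With the Gapdh ratio as a covariate the mean was 0.61 (SE 0.429, limma adjusted p = 0.728) and the difference in EGF+TCDD against TCDD cells 0.63 (SE 0.773), both still not called.

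Ahr, the receptor gene, had its lowest signal in IDMB cells and its highest in cells given neither IDMB nor TCDD. Its signal was 2865.4 and 3582.2 in IDMB+EGF+TCDD cells, against 2372.8 and 1972.5 in IDMB+EGF cells. In IDMB+TCDD cells it was 1703.8 and 1530.6, against 1302.2, 889 and 1464.1 in IDMB cells. Within the mix, then, all arrays with TCDD lay above those without it in the matched groups.

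Outside the mix the order was the other way round. Ahr had a signal of 4789.1 and 4266.4 in EGF+TCDD cells, against 5850.1 and 7426.8 in EGF cells. In TCDD cells it was 2875.9 and 1816.9, against 3332.5, 4642.5 and 7503.2 in UT cells. The UT arrays were the most widely spread of any group for this gene (SD 0.589 on the log2 scale, n = 3).

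The order of group means for Ahr was EGF, UT, EGF+TCDD, IDMB+EGF+TCDD, TCDD, IDMB+EGF, IDMB+TCDD and IDMB. The highest group mean was 5.45 times the lowest. Neighbours overlapped from EGF to EGF+TCDD and from IDMB+EGF+TCDD to IDMB+EGF, and the other 3 steps were clear of overlap.

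As a description of the contrast used in the choice, Ahr was higher with TCDD inside the mix, by log2 0.57 in IDMB+EGF+TCDD against IDMB+EGF cells (SE 0.332) and by 0.44 in IDMB+TCDD against IDMB cells (SE 0.303). Outside the mix it was lower, with log2 differences of -0.54 in EGF+TCDD against EGF cells (SE 0.332) and -1.09 in TCDD against UT cells (SE 0.303). The mean TCDD effect was 0.50 with IDMB and -0.82 without it (SE 0.225 each), a difference of 1.32 (SE 0.318) that ran from 1.16 to 1.49 when any 1 array was left out. None of the 4 pairs overlapped, and the same was true of 33.8%, 37.4%, 37% and 41% of tested probe sets in the IDMB+EGF, IDMB, EGF and UT backgrounds, so separated arrays in 1 pair are common at 2 or 3 arrays a group. For Tiparp too, none of these 4 pairs overlapped. With the Gapdh ratio as a covariate the 2 mean TCDD effects on Ahr were 0.49 with IDMB and -0.80 without it, and those on Tiparp 1.25 and 3.65.

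**Figure D2:**
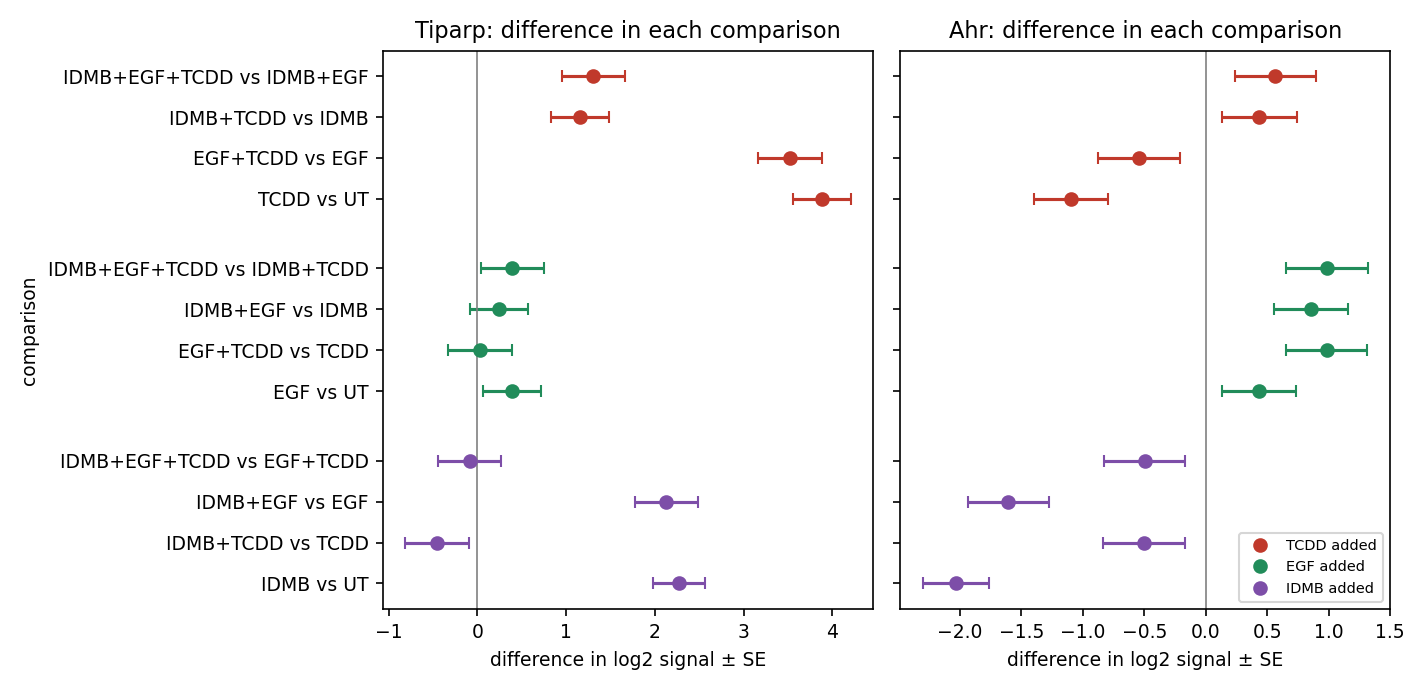
Difference in log2 signal ± SE for Tiparp (left) and Ahr (right) in the 12 comparisons that add TCDD, EGF or IDMB to a background, with 2 or 3 arrays per group. The TCDD points of Ahr lie above 0 in the 2 backgrounds with IDMB and below 0 in the 2 without it, and the IDMB points of Tiparp are far above 0 in the 2 backgrounds without TCDD.

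IDMB lowered Ahr. In IDMB cells Ahr fell by 2.03 on the log2 scale against UT cells, to 0.244 of their level (SE 0.271, 95% interval -2.61 to -1.46, limma adjusted p = 6.98e-05). In IDMB+EGF cells it fell by 1.61 against EGF cells, to 0.328 of their level (SE 0.332, 95% interval -2.31 to -0.90, limma adjusted p = 0.00486), a call that was lost without EGF 2 (adjusted p = 0.0711). With TCDD present the differences were smaller and not called, at -0.50 in IDMB+TCDD against TCDD cells (95% interval -1.20 to 0.20, limma adjusted p = 0.358) and -0.50 in IDMB+EGF+TCDD against EGF+TCDD cells (-1.20 to 0.21, limma adjusted p = 0.447).

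In each of those 4 IDMB comparisons the Ahr arrays did not overlap, as held for 26.6%, 53.7%, 60.5% and 54.3% of probe sets against UT, EGF, TCDD and EGF+TCDD cells. The mean IDMB effect on Ahr was -1.16 (SE 0.159, limma adjusted p = 3.32e-05), and leaving out any 1 array gave -1.24 to -1.08. The exact permutation test of this mean over all 4320 relabellings within backgrounds gave a two-sided p = 0.000463 (0.00185 after adjustment over 4 such tests), and for Tiparp p = 0.0199 (0.0265 after adjustment). In cells without TCDD, then, IDMB lowered Ahr and raised Tiparp. Of 7 tested fibroblast markers 3 were also called lower in IDMB against UT cells and none higher, where 14.1% of all probe sets were called. The median log2 of the 7 was -0.68, against -0.01 over all probe sets. The part of these markers in the fall of Ahr was not tested.

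EGF raised Ahr when averaged over the 4 backgrounds. The mean EGF effect was log2 0.82, or 1.76-fold (SE 0.159, 95% interval 0.48 to 1.15, limma adjusted p = 0.00426, called for 13.1% of probe sets). The exact permutation test over all 3600 relabellings gave a two-sided p = 0.00167 (0.00333 after adjustment over 4 tests). The call held without any 1 array, with adjusted p from 0.0013 to 0.0166.

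No single background passed the test on its own. Ahr was 1.35-fold higher in EGF than in UT cells (limma adjusted p = 0.479), with overlapping arrays. It was 1.98-fold higher in EGF+TCDD than in TCDD cells (adjusted p = 0.113), 1.81-fold in IDMB+EGF than in IDMB cells (adjusted p = 0.129) and 1.98-fold in IDMB+EGF+TCDD than in IDMB+TCDD cells (adjusted p = 0.246), all by limma and all without overlap. Arrays did not overlap for 37.6%, 55%, 31% and 48.1% of probe sets in these 4 comparisons.

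The EGF effect on Ahr was larger by log2 0.22 with IDMB than without, a difference that did not pass the test (95% interval -0.46 to 0.89, limma adjusted p = 0.825). For Tiparp the same difference was 0.11 (95% interval -0.62 to 0.83), and 0.126% of probe sets were called. The EGF effect with TCDD minus that without is built from the TCDD contrasts used to choose the pair, so it is a description: it was 0.34 for Ahr (SE 0.318) and -0.10 for Tiparp (SE 0.342), or 0.29 for Tiparp with the Gapdh ratio as a covariate. Over all probe sets 4.47% were called for it. The Gapdh ratio ran higher with EGF, most clearly with TCDD present: it was 2.13 and 2.86 in IDMB+EGF+TCDD cells against 1.05 and 1.09 in IDMB+TCDD cells, and 2.72 and 2.34 in EGF+TCDD cells against 0.919 and 0.854 in TCDD cells. Without TCDD it was 1.76 and 1.75 in IDMB+EGF cells against 1.73, 1.32 and 1.19 in IDMB cells, and 1.43 and 2.47 in EGF cells against 1.52, 1.45 and 1.25 in UT cells, where the arrays overlapped. With this ratio as a covariate the mean EGF effect on Ahr was 0.69 (SE 0.407) and was no longer called (limma adjusted p = 0.686). Its part in the result was not tested beyond this fit, in which no probe set was called for the mean EGF effect and 614 had an unadjusted p under 0.05, against 935 called without the covariate.

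Other genes of the pathway were taken from lists written with earlier results of these data known. The counts and p-values of these list genes are therefore a description and not independent support. The array held 14 of 16 other AhR targets, and 9 were tested. With IDMB, TCDD raised 5 of the 9 and lowered Ugdh, an enzyme that makes UDP-glucuronate, and without IDMB it raised 6 and lowered none. In these 2 contrasts 3% and 1.14% of all probe sets were called. The median log2 effect of the 9 was 0.79 with IDMB and 1.40 without it, against 0.01 and 0.03 over all tested probe sets. The count without IDMB stayed at 6 without any 1 array, and leaving out IDMB+EGF+TCDD 2 left 3 called with IDMB.

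Aldh3a1, an aldehyde dehydrogenase, was raised 22.2-fold with IDMB and 12.3-fold without it (limma adjusted p = 2.72e-08 and 3.29e-07). Cyp1b1, a xenobiotic-metabolising cytochrome P450, was raised 2.65-fold and 2.63-fold (adjusted p = 2.00e-05 and 2.24e-05). Cyp1a1, its close relative, was raised 3.36-fold and 9.63-fold (adjusted p = 0.0441 and 0.000841). With IDMB and no EGF its arrays overlapped, at 694.4 and 348.6 in IDMB+TCDD cells against 266.2, 260.2 and 358.4 in IDMB cells. With IDMB and EGF its signal was 1879.1 and 1946.7 in IDMB+EGF+TCDD cells against 570.1 and 56.9 in IDMB+EGF cells, the last below the floor. Xdh, xanthine dehydrogenase, was 1.06-fold higher with IDMB (adjusted p = 0.928) and raised 3.13-fold without it (adjusted p = 0.00372). The difference itself, TCDD effect with IDMB minus without, was called by limma for 0 of the 9 targets (5 had an unadjusted p under 0.05) and for 0.112% of all probe sets.

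**Figure D3:**
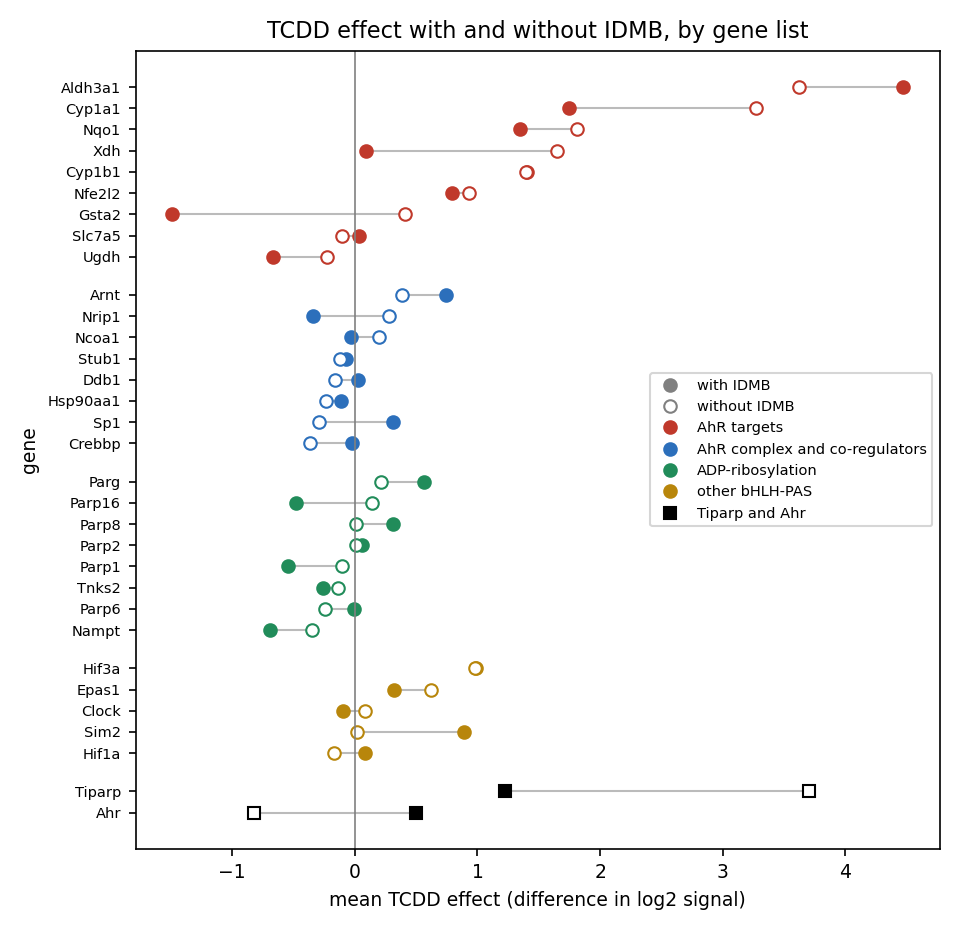
Mean TCDD effect on the log2 scale with IDMB (filled) and without it (open) for the tested genes of 4 lists and for Tiparp and Ahr, each mean over the backgrounds with and without EGF. Tiparp has 1.23 with IDMB and 3.70 without it, and the genes of the other 3 lists lie closer to 0 than the AhR targets with the largest effects.

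IDMB alone, against UT, raised Xdh (log2 2.59, limma adjusted p = 2.77e-05) and lowered Slc7a5, an amino acid transporter (-0.76, adjusted p = 0.0175), with the other 7 targets not called. Cyp1b1, at 0.37 (adjusted p = 0.167), Cyp1a1, at -0.28 (adjusted p = 0.816), and Aldh3a1, at -0.53 (adjusted p = 0.294), did not pass. Averaged over 4 backgrounds, EGF raised Aldh3a1, Nqo1 and Nfe2l2 and lowered Xdh, and IDMB raised Cyp1b1 and Xdh and lowered Nqo1 and Slc7a5. Over all probe sets 14.1% were called for IDMB against UT, 13.1% for the mean EGF effect and 34.1% for the mean IDMB effect, so these counts of 2, 4 and 4 of 9 are read against those shares. With the Gapdh ratio as a covariate none of the 4 EGF calls was made.

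Of 19 genes for the receptor's partners, chaperones and co-regulators 12 were on the array and 8 were tested. Averaged over backgrounds with and without EGF, none was called for TCDD by limma, with IDMB (1 with unadjusted p under 0.05) or without it (0). Arnt, the DNA-binding partner of the receptor, was uneven across these backgrounds. Its signal was 1384.3 and 1574.8 in TCDD against 725.5, 650.1 and 658.5 in UT cells. It was 1751.1 and 1649.7 in IDMB+TCDD against 1017.2, 494.4 and 730.1 in IDMB cells. With EGF it was 676.4 and 642.3 in EGF+TCDD against 871.1 and 812 in EGF cells. With EGF and IDMB it was 516.2 and 573.6 with TCDD against 517.8 and 414.5 without. Arnt fell by 0.78 on the log2 scale with EGF averaged over backgrounds (limma adjusted p = 0.00634), although both EGF arrays lay above all UT arrays. Hsp90aa1, a chaperone of the unbound receptor, rose by 0.36 with EGF (adjusted p = 0.0211) and fell by 0.52 with IDMB (adjusted p = 0.000461), again as means. Outside the mix all its arrays with EGF lay above those without in the matched groups. Its signal was 25273.2 and 28221.9 in IDMB+EGF against 37756.6, 36077.6 and 31382.5 in IDMB cells. With IDMB and TCDD its arrays overlapped. These differences between backgrounds were not tested. Nrip1, a corepressor, rose by 0.86 with IDMB (adjusted p = 0.00136). With the Gapdh ratio as a covariate neither EGF call was made, and over all probe sets 13.1% were called for EGF and 34.1% for IDMB. Ahrr, the AhR repressor and another feedback gene, was at or below the floor on 15 of 18 arrays and was not tested.

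Of 21 genes of ADP-ribosylation 9 were on the array and 8 were tested. With IDMB, TCDD changed 1 of the 8, Nampt, an enzyme of the pathway to the NAD that these enzymes use (log2 -0.69, limma adjusted p = 0.0461), a call lost in 13 of the 18 fits with 1 array left out. Without IDMB none was called (limma, 0 with unadjusted p under 0.05). Nampt rose by 1.88 with IDMB (adjusted p = 1.02e-08) and fell by 0.90 with EGF (adjusted p = 0.000548), Parp2 rose by 0.71 with EGF (adjusted p = 0.000759), and Parp1 and Parp16 fell with IDMB (-0.57 and -0.61, adjusted p = 0.0463 and 0.0413). The count of 3 of 8 for IDMB is near the 34.1% of all probe sets, and it was 1 under median scaling, quantile normalization or no filter and changed in 8 of the 18 fits with 1 array left out. None of the EGF calls was made with the Gapdh ratio as a covariate. Of 11 other bHLH-PAS genes 8 were on the array and 5 tested. Hif3a, a hypoxia-related member, was the 1 called with TCDD, at log2 0.99 with IDMB (adjusted p = 0.0426) and 0.98 without it (adjusted p = 0.0682). The call with IDMB was lost in 12 of the 18 fits with 1 array left out, and Hif3a also rose with IDMB (0.60, adjusted p = 0.015). Hif1a, the oxygen-regulated factor, fell by 0.26 with EGF (adjusted p = 0.0473), a call lost in 14 of them.

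Likeness of pattern was measured as Pearson's r of log2 values over the 18 arrays, which share treatments and handling, and is given as a description. The genes most like Tiparp were Il1r1, an interleukin receptor (r = 0.861), Cyp1b1 (0.844), Hif3a (0.835), Denn2b (0.831) and Tbc1d20 (0.811). The lowest values were those of Jund (-0.830), Npr3 (-0.822) and Aldoa (-0.816). Of the 5 most alike, 3 remained among the first 5 by Spearman's correlation. Their mean TCDD effects ran on the log2 scale from 0.16 to 1.41 with IDMB and from 0.39 to 1.40 without it.

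For Ahr the closest genes were Calu (r = 0.919), Rrbp1 (0.906), Emp3 (0.905), Tuba1a (0.895), a tubulin, and S100a4 (0.887), a calcium-binding protein of fibroblasts. The lowest were Gdap10 (-0.882), Rogdi (-0.878) and Rassf2 (-0.871). All 5 genes closest to Ahr had a lower mean signal with IDMB (log2 -1.39 to -0.34) and a higher one with EGF (0.23 to 0.80), and each had a mean TCDD effect above 0 with IDMB and below 0 without it. Since the genes were picked for their likeness to Ahr, this is a description.

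**Figure D4:**
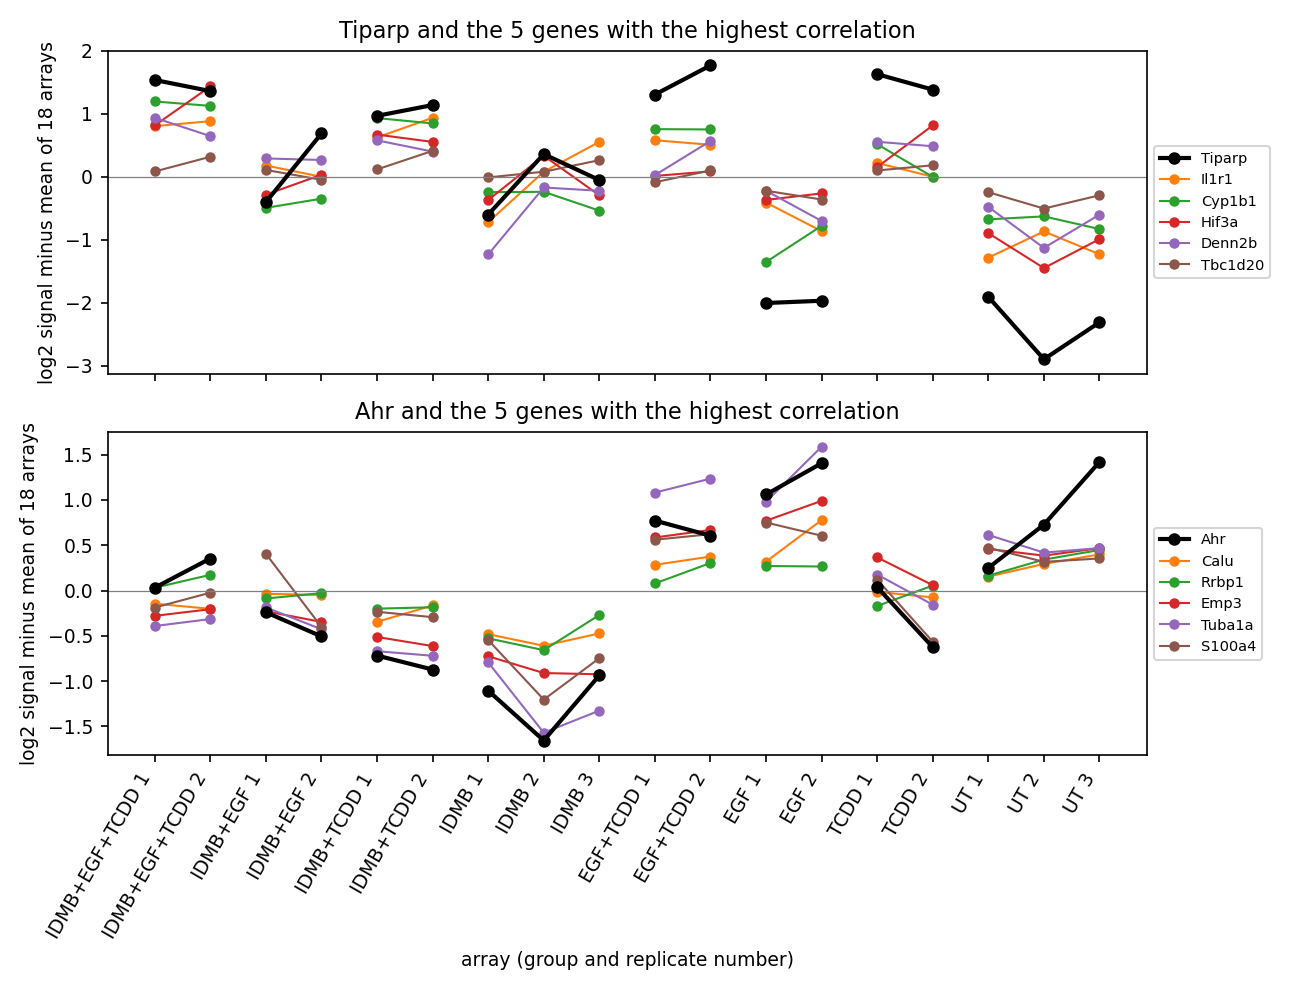
Log2 signal minus its mean over 18 arrays for Tiparp (top) and Ahr (bottom), each in black with the 5 genes of highest correlation; points are arrays, joined within a group. Genes close to Tiparp share its low values in EGF and UT cells, and genes close to Ahr share its low values in IDMB cells.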

How the data were processed

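The 18 arrays were read from the deposited table of signal intensities, which ran from 0.4 to 441059.8 on a linear scale, with software not given in the sources used here. Left without the highest and lowest 2% of values, every array had a mean near 2502, so the deposited intensities were already on a common scale. They were used as such, since array medians differed by a ratio of 1.18.

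Of 12488 probe sets 66 controls were left out. Of the rest 10833 had 1 gene symbol, 396 several and 1193 none. Values under 143.5 were set to that floor, log2 was taken, and the 7134 probe sets with a group mean of at least 9.73 were fitted with limma 3.58.1 in R 4.3.3 (1 mean per group, trended variance, 10 residual degrees of freedom, prior 6.03). P-values were adjusted by Benjamini-Hochberg within each comparison. For list genes the probe set with the highest mean signal stood for the gene. The fit was tested on simulated data.

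Named genes were the members, list genes called in a mean effect or described by role, and for each member the 5 genes with the highest and the 3 with the lowest correlation. Members and lists were chosen with earlier results of these data known. Alternatives were median scaling, quantile normalization, floors at the 10th and 30th percentile, no filter, no variance trend, the replicate number as a block, the Gapdh ratio as a covariate and leaving out each array. The exact permutation test was added after seeing the data. Deviations of same-numbered arrays correlated over 0.1 in 14 of 57 pairs (-0.10 to 0.44). This does not settle whether the numbers pair the arrays, and they were not taken as pairs in the reported fit. No arrays were identical (highest correlation 0.954).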

Additional observations from a re-analysis of the deposited data

Results flagged for a closer look

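The estimated effect of TCDD on Ahr was above 0 with IDMB, at log2 0.44 (SE 0.303) without EGF and 0.57 (SE 0.332) with it. Without IDMB it was below 0, at -1.09 (SE 0.303) and -0.54 (SE 0.332). All IDMB+TCDD arrays lay above all IDMB arrays while all TCDD arrays lay below all UT arrays, and the log2 effects differed by 1.53. All IDMB+EGF+TCDD arrays likewise lay above all IDMB+EGF arrays while all EGF+TCDD arrays lay below all EGF arrays, a difference of 1.11. In the IDMB, UT, IDMB+EGF and EGF backgrounds 37.4%, 41%, 33.8% and 37% of tested probe sets did not overlap either. For Tiparp all IDMB+TCDD arrays lay below all TCDD arrays and all IDMB arrays above all UT arrays, and the IDMB effects differed by -2.73. The lower signal with TCDD present was itself not called (log2 -0.45, 95% interval -1.21 to 0.30, limma adjusted p = 0.452), its arrays overlapped in the pair with EGF, and 60.5% of probe sets did not overlap between IDMB+TCDD and TCDD cells. These differences were not tested, because the pair was chosen on the contrast they belong to.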

How the results depend on the processing

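Under the 8 other settings of scaling, floor, filter, variance model, block and covariate, the effects on Tiparp and Ahr kept their direction and side of the threshold, apart from the following. With the replicate block, Ahr in IDMB+EGF against IDMB cells was called (log2 1.09, limma adjusted p = 0.0253), although the numbers were not taken as pairs in the reported fit. The probe sets called with the block were 173 for TCDD without IDMB (81 in the reported fit) and 14 for its difference between IDMB and no IDMB (8). With the Gapdh covariate the mean EGF effect on Ahr was 0.69 and not called, and 0 probe sets and 0 genes of each of the 4 lists were called for EGF. The EGF-by-TCDD difference of Tiparp, given without a test, was 0.29 with this covariate and -0.10 in the reported fit. Without the filter, 136 probe sets were called for TCDD with IDMB (214) and 15 for the difference, which was 14 with the higher floor. Leaving out 1 array, the TCDD effect on Tiparp with IDMB and EGF ran from 0.76 to 1.85 and the IDMB effect on Ahr with EGF from -1.78 to -1.44. Probe sets called then ran from 88 to 235 for TCDD with IDMB (88 without IDMB+EGF+TCDD 2), 33 to 112 without IDMB (33 without EGF+TCDD 2), 8 to 14 for the difference and 463 to 1018 for EGF (463 without TCDD 2).

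Small list counts were less stable. For TCDD with IDMB the ADP-ribosylation count of 1 was 0 under median scaling, no filter, no trend, the block and the covariate, and the bHLH-PAS count of 1 was 0 without the filter and with the covariate. Without the trend, 1 receptor partner was called for TCDD with IDMB and 1 bHLH-PAS gene without it. The bHLH-PAS count for EGF was 0 under median scaling, no filter, no trend and the block, the ADP-ribosylation count for IDMB was 1 under median scaling, quantile normalization and no filter, and the partner count for IDMB against UT was 1 without filter or trend. Leaving out 1 array, counts for TCDD with IDMB ran from 0 to 1 for partners, 3 to 6 for AhR targets, 0 to 1 for ADP-ribosylation and 0 to 1 for bHLH-PAS genes, and 0 to 1 for the difference in targets. For EGF they ran from 1 to 3, 2 to 5, 2 to 3 and 0 to 1 in the same order, and for IDMB against UT from 1 to 2 for partners, 1 to 2 for targets and 0 to 1 for bHLH-PAS genes. The ADP-ribosylation count for the mean IDMB effect ran from 1 to 3. The causes were not tested. Of the 5 genes most like each member, 3 for Tiparp and 4 for Ahr were kept by Spearman correlation. With 2 or 3 arrays a group, the number of arrays limits what could be called.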
